A study of Mus musculus with 6 samples.

Results

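The Slc25 genes encode the mitochondrial carriers, and 38 of them were followed here in RNA from infarcted mouse hearts with and without deletion of Zeb2 in cardiomyocytes. The members, called the family below, were protein-coding genes considered here whose symbol starts with Slc25a and that had a sum of at least 60 counts over the 6 libraries, which kept 38 of 46 in a table of 38293 genes. The rule used the summed level and no comparison between genotypes.

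The mice were adult males backcrossed to C57BL/6J, and the left anterior descending coronary artery had been tied permanently 14 days before the hearts were collected. The 3 Zeb2 cKO hearts carried floxed Zeb2 alleles and a Cre driven by the cardiomyocyte Myh6 (αMHC) promoter, and the 3 control hearts, labelled WT, carried the same floxed alleles (Zeb2 fl/fl), with no Cre described for them, so the deletion and the presence of Cre cannot be told apart. Total RNA of whole tissue was depleted of ribosomal RNA and sequenced as single-end reads, 1 library per heart. The labels place the samples at the infarct border and the study's methods in the remote zone, and the 3 libraries of a group are separate hearts as far as the labels tell.

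Most carriers sit in the inner mitochondrial membrane and exchange a metabolite of the matrix for one of the intermembrane space. In heart muscle they bring phosphate, ADP and acylcarnitines into the matrix, release ATP to the cytosol, and move the malate, 2-oxoglutarate, aspartate and glutamate of the malate-aspartate shuttle, by which cytosolic reducing equivalents reach the respiratory chain. Other members carry nucleotides, coenzymes, glutathione, single amino acids or iron.

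ZEB2 is known as a repressor, and the study proposes that it raises the expression of Tmsb4 and Ptma. It binds E2-box sequences, so the promoters were searched for that and other motifs. The windows of 4 of the 8 highest carriers are shown, chosen because they held a motif. The windows of the other 4 (Slc25a11, Slc25a12, Slc25a13 and Slc25a39) held none of those searched. RefSeq windows of 300 bases (250 before to 50 after an annotated start, GRCm38.p6) were matched for 29 of the 38 carriers, in 38 windows because some genes have several. The 4 windows lie at chr10:91123918-91124217 on the minus strand (Slc25a3), chrX:36795347-36795646 on the plus strand (Slc25a5), chr4:141623785-141624084 on the minus strand (Slc25a34) and chr9:108661886-108662185 on the plus strand (Slc25a20). All are printed 5′ to 3′ in the direction of the gene, and capitals mark an E2-box (CACCTG, or CAGGTG on the other strand) or an ETS-type motif (CCGGAAG on either strand).
Slc25a3: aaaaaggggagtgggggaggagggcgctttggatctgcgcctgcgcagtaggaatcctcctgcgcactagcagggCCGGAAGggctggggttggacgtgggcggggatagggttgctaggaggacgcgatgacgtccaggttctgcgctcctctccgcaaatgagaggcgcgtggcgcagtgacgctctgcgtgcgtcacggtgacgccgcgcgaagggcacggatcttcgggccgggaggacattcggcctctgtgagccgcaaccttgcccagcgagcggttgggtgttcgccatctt
Slc25a5: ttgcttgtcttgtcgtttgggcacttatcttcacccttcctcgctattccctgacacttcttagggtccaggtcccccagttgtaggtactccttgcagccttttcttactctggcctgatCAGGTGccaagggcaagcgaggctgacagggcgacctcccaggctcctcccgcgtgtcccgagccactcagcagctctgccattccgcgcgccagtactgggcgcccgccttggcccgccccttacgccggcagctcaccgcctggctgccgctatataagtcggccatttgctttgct
Slc25a34: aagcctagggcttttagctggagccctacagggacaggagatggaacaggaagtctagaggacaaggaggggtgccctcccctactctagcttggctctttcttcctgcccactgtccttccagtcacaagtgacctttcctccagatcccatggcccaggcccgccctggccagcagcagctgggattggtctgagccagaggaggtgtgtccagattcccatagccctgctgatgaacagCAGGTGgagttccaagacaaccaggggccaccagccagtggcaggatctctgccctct
Slc25a20: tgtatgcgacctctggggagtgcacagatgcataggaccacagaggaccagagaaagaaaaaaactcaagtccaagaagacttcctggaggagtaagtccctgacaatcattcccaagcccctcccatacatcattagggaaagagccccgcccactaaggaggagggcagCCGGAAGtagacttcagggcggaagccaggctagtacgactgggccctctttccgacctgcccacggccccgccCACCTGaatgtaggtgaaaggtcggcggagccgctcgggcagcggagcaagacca

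The first letter of the E2-box stood at position -129 from the annotated start in Slc25a5, at -8 in Slc25a34 and at -5 in Slc25a20, and the ETS-type motif began at -175 in Slc25a3 and at -79 in Slc25a20. An E2-box was present in 6 of the 38 carrier windows (15.8%), against 20.2% of all 32851 promoter windows, and the other 3 belonged to Slc25a33, Slc25a38 and Slc25a40. The ETS-type motif was present in 5 carrier windows (13.2%), against 8.86% of all windows. The motif TCAAGGTCA of the estrogen-related receptors, held by 0.423% of all windows, was in 0 carrier windows on either strand. These are matches of letters in short windows, and no binding was measured.

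The libraries held 37288174 to 51136331 gene counts, of which 60.5% to 67.0% fell on mitochondrially encoded genes, and all levels below are counts scaled to a common library size by TMM (CPM), over nuclear and mitochondrial genes together. Zeb2 itself, measured here over the whole gene in all cells of the tissue, stood at 61.3, 116 and 71.9 CPM in the WT hearts and 59.6, 72.6 and 66.5 CPM in the Zeb2 cKO hearts (log2 fold change -0.33, SE 0.25, edgeR quasi-likelihood adjusted p = 0.957). The groups overlapped, so the whole-gene level of Zeb2 did not separate the labels. WT replicates 1 and 3 lay inside the Zeb2 cKO range, so the negative fold change rested on the 116 CPM of WT replicate 2. By qPCR the study reports lower Zeb2 in Zeb2 cKO hearts. WT replicate 2 stood apart from the other 5 libraries. The summed level of 10 cardiomyocyte markers was 35446 CPM there and 57135 to 69433 CPM in the others, 8 fibroblast and scar markers summed to 10227 CPM against 1696 to 2449 CPM, and 8 macrophage markers to 816 CPM against 204 to 285 CPM. No defining marker of these 3 lists was at 0 in any library. WT replicate 2 was the lowest library for 9 of the 10 cardiomyocyte markers and the highest for all 8 markers of each of the other two lists. In bulk tissue, fewer cells of a type and less RNA per cell cannot be told apart.

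The 38 carriers together took a small share of the transcriptome. Their counts were 0.317%, 0.223% and 0.313% of the counts outside the mitochondrial genome in the WT hearts and 0.335%, 0.334% and 0.290% in the Zeb2 cKO hearts (0.284% ± 0.0531 against 0.320% ± 0.0257, SD, n = 3 each). The groups overlapped, and WT replicate 2 was the lowest of the 6. Against the summed level of the 10 cardiomyocyte markers, the summed CPM of the carriers was 1.74%, 2.11% and 1.83% in WT and 1.80%, 1.98% and 1.80% in Zeb2 cKO hearts. On that scale WT replicate 2 was the highest library, but most of the sum came from Ttn, with 22884 of 35446 CPM there. WT replicate 2 was the lowest library for 9 of the 10 markers, but not for Myl2. Myl2 stood at 2117 CPM there and 2040 CPM in Zeb2 cKO replicate 3, so this order depends on the markers taken. The low family share of WT replicate 2 moved together with its low cardiomyocyte markers and high fibroblast markers, and the part of cell composition was not tested.

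Levels between carriers were compared as CPM per kilobase of merged exons, averaged over the 6 libraries. A few carriers made up most of the level of these 38: Slc25a11, Slc25a3 and Slc25a5 held 55.3% of the summed level per kilobase, and the first 10 held 85.7%. In all, 8 carriers exceeded 10 CPM per kilobase, 20 lay between 1 and 10, and 10 lay under 1, and the highest stood 275-fold over the lowest, Slc25a53. Slc25a11, the 2-oxoglutarate carrier that exchanges 2-oxoglutarate for malate, stood highest of the 38 at 74.3 ± 16.3 CPM per kilobase (SD, n = 6). Slc25a3, which brings phosphate into the matrix for ATP synthesis, followed at 57.1 ± 12.2, and Slc25a5, an ADP/ATP translocase, at 31.5 ± 4.01 CPM per kilobase. This order held in each of the 6 libraries.

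**Figure D1:**
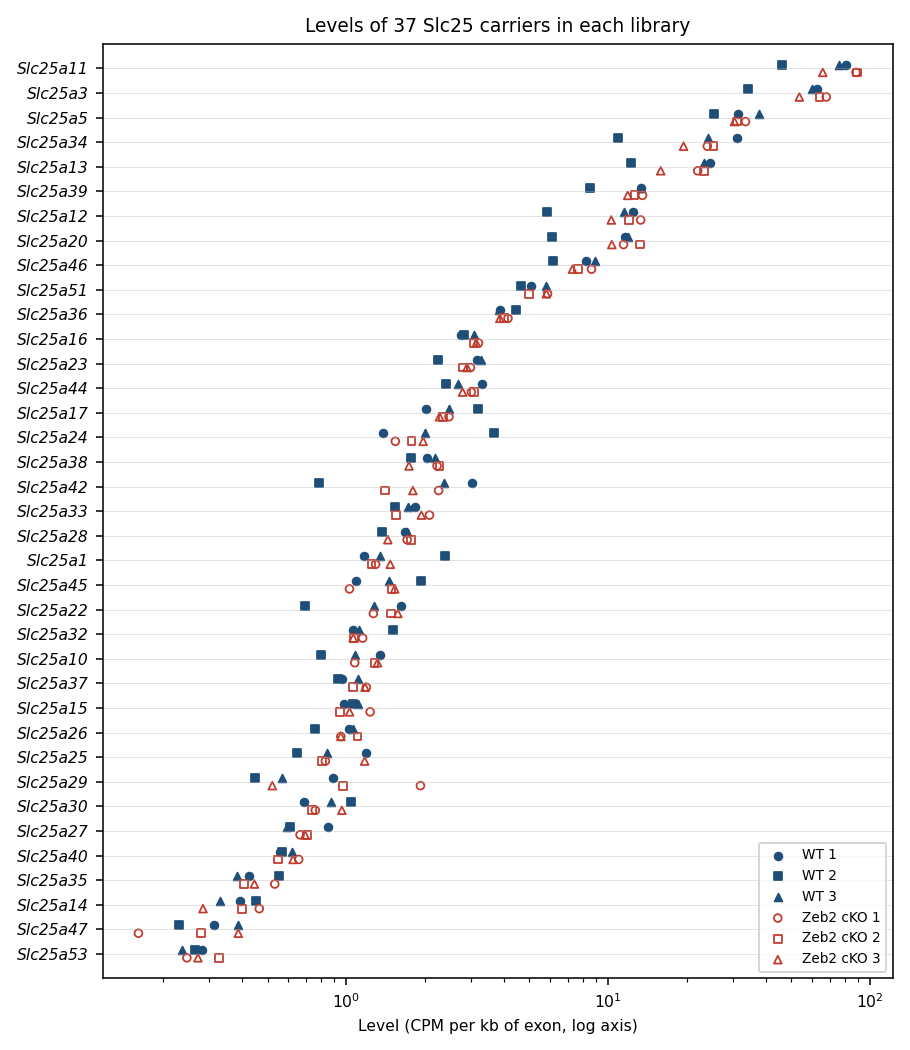
Level of each of 37 carriers in CPM per kilobase of merged exons on a log axis, ordered by the mean, with a point for each of the 3 WT and 3 Zeb2 cKO libraries. Slc25a11 averaged 74.3 CPM per kilobase, and Slc25a53 lay lowest, 275-fold below it.

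Below the first 3, Slc25a34 stood at 22.4 ± 6.75 and Slc25a13, an aspartate-glutamate carrier regulated by calcium, at 20.1 ± 4.94 CPM per kilobase. Slc25a34 was the higher of this pair in 5 of 6 libraries. Slc25a39, which imports glutathione, reached 12.2 ± 1.91 CPM per kilobase, Slc25a12, the other aspartate-glutamate carrier, 10.9 ± 2.67, and Slc25a20, which imports acylcarnitines for β-oxidation, 10.8 ± 2.46. Slc25a12 exceeded Slc25a20 in only 2 of 6 libraries, so the order of these neighbours did not hold beyond the spread. Slc25a46, a relative found in the outer membrane, came next at 7.80 ± 1.01 CPM per kilobase, and Slc25a51, which imports NAD+, at 5.36 ± 0.524. Over the whole ranking, 10 of the 37 neighbouring pairs kept their order in all 6 libraries. When the longest transcript replaced the merged exons as the length, 9 of the first 10 carriers were the same.

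The carriers under the minimum bounded the family from below. Slc25a43 had 52 counts over the 6 libraries, Slc25a2 50, Slc25a31 47, Slc25a18 31 and Slc25a21 6. No count fell on Slc25a41, Slc25a48 or Slc25a54, which allows up to 3 counts over the 6 libraries (0.0112 CPM, counting error only). The carriers just inside were Slc25a47 with 231 and Slc25a14 with 244 counts, so the gap at the minimum was wide. Slc25a31 is the ADP/ATP translocase known from germ cells and Slc25a18 the glutamate carrier known from astrocytes, and they stood at the low end here.

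Reads of some members can be shared with near-identical copies. Of the longest transcript of Slc25a5, 72.3% matched other genes over at least 75 bases at 95% identity or more on the same strand, from 3 such genes, so its count is uncertain. The shares were 20.9% for Slc25a20, 17.7% for Slc25a36 and 2.03% for Slc25a3, and 8 of the 38 carriers had any. Overlap with an exon on the other strand covered 31.3% of Slc25a35 and 14.9% of Slc25a33, and the strand setting of the counting is not given in the sources used here.

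The comparison of Zeb2 cKO with WT hearts asked whether losing ZEB2 in cardiomyocytes changed the carriers 14 days after infarction. By edgeR's quasi-likelihood test no carrier passed an adjusted p of 0.05, higher or lower, as for all 14746 genes tested (0.0% in either direction, smallest adjusted p = 0.957). At an unadjusted p under 0.05 there were 0 carriers lower (0.861% of all genes) and 0 higher (1.04%, together 1.9%), and DESeq2 also gave 0 carriers on either measure. The smallest unadjusted p among the carriers was 0.133, for Slc25a29. In no carrier did the 3 WT libraries lie wholly apart from the 3 Zeb2 cKO libraries, against 6.36% of all genes tested (2.97% lower and 3.39% higher in Zeb2 cKO). All 38 carriers passed the filter on low counts, and an exact permutation test with 3 hearts a group cannot give a two-sided p under 0.1. The smallest permutation p of a carrier was 0.2.

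**Figure D2:**
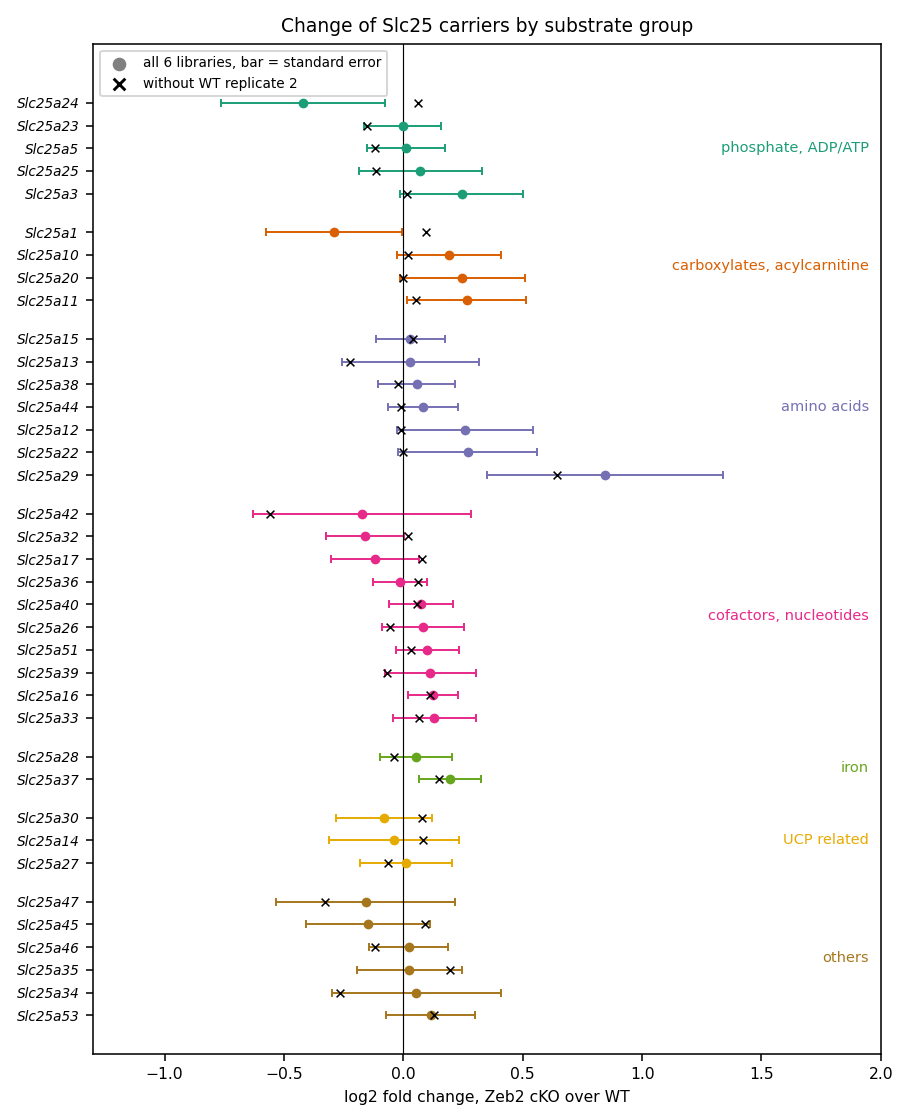
Log2 fold change of each of 37 carriers, Zeb2 cKO over WT, with 1 standard error from edgeR's fit, from all 6 libraries and again without WT replicate 2. The values ran from -0.42 (Slc25a24) to 0.84 (Slc25a29), and no carrier passed the test.

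The fold changes were small. Their median was 0.056 on the log2 scale over the 38 carriers and -0.0069 over all genes tested, with standard errors from 0.10 to 0.50. Slc25a24 and Slc25a1 had a log2 fold change under -0.2, as did 22.6% of all genes, and 7 carriers lay over 0.2, as did 15.9%. Slc25a3, Slc25a11, Slc25a12, Slc25a20, Slc25a22 and Slc25a29 were among the latter. Values above 0 were seen in 27 carriers (71.1%), against 48.6% of all genes. Leaving out WT replicate 2 brought this to 21 carriers against 50.9% of genes, the median to 0.018, and the carriers under -0.2 and over 0.2 to 4 (11.7% of genes) and 1 (14.2%). Without WT replicate 1 they numbered 6 (28.8% of genes) and 14 (26.5%). The carriers under -0.2 numbered 4 without Zeb2 cKO replicate 1 (22.1%) and 5 without Zeb2 cKO replicate 3 (26.9%).

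In the energy group, the phosphate carrier Slc25a3 stood at 347, 190 and 333 CPM in WT hearts and 377, 355 and 298 CPM in Zeb2 cKO hearts. Its log2 fold change was 0.24 (SE 0.26, unadjusted p = 0.376 by edgeR), and 0.017 without WT replicate 2. The 2 lowest libraries came from different groups, so the groups overlapped. Slc25a5 stood at 51.3, 41.8 and 62.0 CPM in WT and 55.0, 51.1 and 49.9 CPM in Zeb2 cKO hearts (51.7 ± 10.1 against 52.0 ± 2.65, SD, n = 3), a log2 fold change of 0.0097 (SE 0.16). The Zeb2 cKO hearts lay inside the WT range for this translocase.

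The other 3 members of this group exchange ATP-Mg for phosphate and so set the adenine nucleotide content of the matrix. Slc25a24 was measured at 4.73, 12.6 and 6.87 CPM in WT and 5.28, 6.08 and 6.74 CPM in Zeb2 cKO hearts. This gave the lowest log2 fold change of the family, -0.42 (SE 0.34), which became 0.060 without WT replicate 2 and -0.69 (SE 0.27, unadjusted p = 0.0426, adjusted p = 0.596 by edgeR) without WT replicate 1, where 5.49% of all genes were lower at an unadjusted p under 0.05. The high value of WT replicate 2 alone lay outside the other 5. Slc25a23 had a log2 fold change of -0.0022 and was lowest in the same library, at 11.9 CPM against 14.7 to 17.3 CPM in the others. The ratio of Slc25a24 to Slc25a23 per kilobase was 1.63 in WT replicate 2 and 0.438 to 0.680 in the other 5 libraries. Slc25a25 followed Slc25a23 in direction, with 5.08 CPM in WT replicate 2 and 6.36 to 9.37 CPM elsewhere.

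Among the carboxylate and acylcarnitine carriers, Slc25a11 stood at 171, 97.6 and 161 CPM in WT and 187, 189 and 140 CPM in Zeb2 cKO hearts. The log2 fold change was 0.26 (SE 0.25) and fell to 0.054 without WT replicate 2. Zeb2 cKO replicate 3 lay below 2 of the 3 WT hearts. The acylcarnitine carrier Slc25a20 measured 55.9, 29.6 and 57.4 CPM in WT and 55.4, 64.2 and 49.97 CPM in Zeb2 cKO hearts, a log2 fold change of 0.25 (SE 0.26) that was -0.0018 without WT replicate 2. The other 2 WT hearts lay inside the Zeb2 cKO range. Slc25a10, the dicarboxylate carrier, had its lowest value in WT replicate 2 as well, at 2.76 CPM against 3.72 to 4.65 CPM. Slc25a1, which exports citrate for cytosolic acetyl-CoA, went the other way, at 2.52, 5.15 and 2.92 CPM in WT and 2.80, 2.70 and 3.18 CPM in Zeb2 cKO hearts. Its log2 fold change was -0.29 (SE 0.28), and 0.093 without WT replicate 2.

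The amino acid carriers held 13.3% of the family's level per kilobase, and the log2 fold changes of all 7 were above 0 (48.6% of all genes), with 0 passing the test. Without WT replicate 2, only 2 of the 7 were above 0 (50.9% of genes). Slc25a13 measured 93.0, 46.4 and 87.8 CPM in WT and 83.3, 88.4 and 60.2 CPM in Zeb2 cKO hearts (log2 fold change 0.029, SE 0.29), and Slc25a12 measured 91.2, 42.8 and 84.5 CPM in WT and 97.6, 88.2 and 75.4 CPM in Zeb2 cKO hearts (log2 fold change 0.26, SE 0.29). Without WT replicate 2 these became -0.22 and -0.010. The pair do the same exchange, and their ratio was the only one of 10 ratios between related carriers in which the groups did not overlap. Slc25a12 over Slc25a13 per kilobase was 0.507, 0.478 and 0.498 in WT and 0.606, 0.517 and 0.648 in Zeb2 cKO hearts. The difference of the mean log2 ratios was 0.25, and 0.23 without WT replicate 2 (exact permutation test, two-sided p = 0.1, the smallest that 3 against 3 can give, adjusted p = 1 over the 10 ratios). The nearest hearts of the groups were 0.507 and 0.517, so the separation was narrow.

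**Figure D3:**
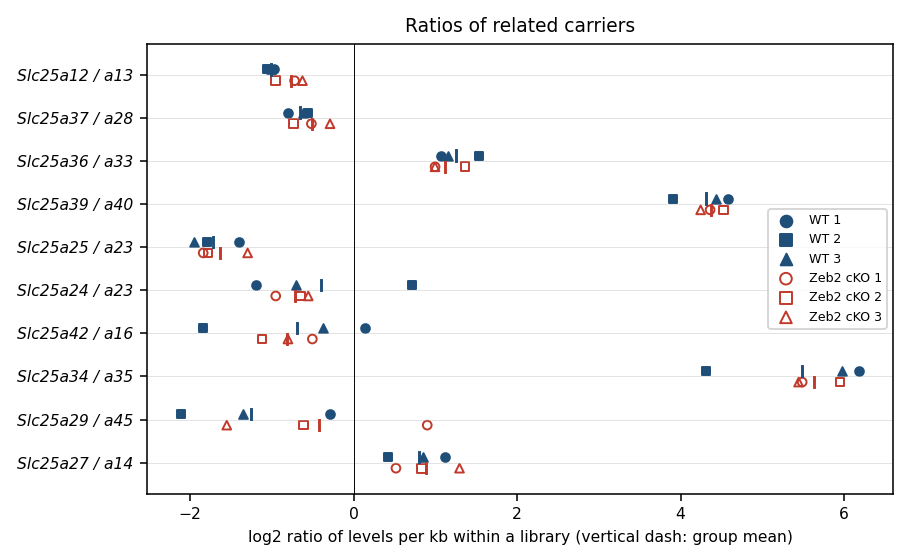
Log2 of the ratio of level per kilobase between related carriers, with a point for each WT and Zeb2 cKO library and a bar at each group's mean. As a plain ratio, Slc25a12 to Slc25a13 was 0.478 to 0.507 in WT and 0.517 to 0.648 in Zeb2 cKO hearts, and in the other 9 ratios the groups overlapped.

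Slc25a29, a carrier of basic amino acids, had the largest fold change of the family. It stood at 2.31, 1.16 and 1.48 CPM in WT and 4.996, 2.54 and 1.36 CPM in Zeb2 cKO hearts (1.65 ± 0.592 against 2.96 ± 1.86, SD, n = 3), a log2 fold change of 0.84 (SE 0.50). Zeb2 cKO replicate 1 was well over the other 5 libraries, and Zeb2 cKO replicate 3 lay below 2 of the WT hearts. The log2 fold change was 0.23 without Zeb2 cKO replicate 1, 0.64 without WT replicate 2 and 1.19 (SE 0.41, unadjusted p = 0.0295, adjusted p = 0.915 by edgeR) without Zeb2 cKO replicate 3, where 1.1% of all genes were higher at an unadjusted p under 0.05. The value in each library rested on 51 to 250 counts. The annotated span of Slc25a47 begins 162 bases from that of Slc25a29 on chromosome 12. The promoter window matched to Slc25a47 lies farther away, at chr12:108850879-108851178. Slc25a47 had its lowest value, 0.480 CPM from 24 counts, in Zeb2 cKO replicate 1. Slc25a44, which imports branched-chain amino acids, ranged over 8.59 to 11.7 CPM, and Slc25a38, which imports glycine for heme synthesis, over 4.76 to 6.22 CPM. Slc25a15, the ornithine carrier, ranged over 5.32 to 6.93 CPM, and Slc25a22, a glutamate carrier, over 4.17 to 9.66 CPM with a log2 fold change of 0.27 (SE 0.29) that was -0.0036 without WT replicate 2.

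The 11 carriers of cofactors and nucleotides had a median log2 fold change of 0.082, and 0 passed the test. Slc25a42, which carries coenzyme A, varied over 3.85-fold, at 18.1, 4.69 and 14.1 CPM in WT and 13.5, 8.43 and 10.8 CPM in Zeb2 cKO hearts. Its log2 fold change was -0.17 (SE 0.45) in all hearts and -0.56 (SE 0.20, unadjusted p = 0.0263, adjusted p = 1.00 by edgeR) without WT replicate 2, where the other 2 WT hearts lay above all 3 Zeb2 cKO hearts. At an unadjusted p under 0.05 without that library, Slc25a42 was 1 of the 38 carriers (2.63% of all genes). Slc25a16, linked to coenzyme A as well, was among the steadiest carriers, at 13.1, 13.5 and 14.7 CPM in WT and 15.3, 14.7 and 15.0 CPM in Zeb2 cKO hearts (13.8 ± 0.821 against 15.0 ± 0.324, log2 fold change 0.12, SE 0.10). The groups of Slc25a16 overlapped by a narrow margin, with WT replicate 3 just above Zeb2 cKO replicate 2.

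Slc25a51 stood between 25.6 and 32.3 CPM in all hearts, and the pyrimidine nucleotide carriers Slc25a36 and Slc25a33 stood between 36.7 and 42.4 and between 2.89 and 3.92 CPM. Slc25a36 varied least of all carriers, with a highest over lowest library of 1.16. Slc25a39 had its lowest value, 23.4 CPM, in WT replicate 2 and lay between 32.7 and 37.2 CPM elsewhere, whereas its relative Slc25a40 ranged over 4.59 to 5.52 CPM. Slc25a32, the folate carrier, and Slc25a17, a carrier of cofactors in the peroxisomal membrane, were highest in WT replicate 2, at 9.14 and 9.07 CPM against 6.43 to 7.01 and 5.71 to 7.03 CPM in the other hearts. Slc25a26, which imports S-adenosylmethionine, ranged over 3.65 to 5.30 CPM.

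Mitoferrin 1 (Slc25a37) and mitoferrin 2 (Slc25a28) bring iron into the matrix. Slc25a37 was at 5.79, 5.61 and 6.67 CPM in WT and 7.17, 6.38 and 7.09 CPM in Zeb2 cKO hearts (6.02 ± 0.567 against 6.88 ± 0.434, log2 fold change 0.19, SE 0.13). Only Zeb2 cKO replicate 2 lay within the WT range, and the exact two-sided permutation p was 0.2. Slc25a28 ranged over 5.13 to 6.64 CPM. Mitoferrin 1 is prominent in red cell precursors, and 6 erythroid markers summed to 146, 238 and 243 CPM in WT and 205, 135 and 191 CPM in Zeb2 cKO hearts. Of these, Alas2, the heme synthesis enzyme of red cell precursors, was at 8.18, 7.38 and 10.05 CPM in WT and 10.7, 7.05 and 9.98 CPM in Zeb2 cKO hearts. The part of such cells in the level of Slc25a37 was not tested.

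The carriers related to uncoupling proteins were low, together 0.652% of the family's level per kilobase. Slc25a30 ranged over 3.16 to 4.76 CPM, Slc25a27 over 2.34 to 3.35 CPM and Slc25a14 over 0.670 to 1.10 CPM, with log2 fold changes from -0.081 to 0.012. Of the remaining 6 members, Slc25a34 had the widest spread among the first 10 carriers, at 82.8, 29.2 and 64.1 CPM in WT and 63.8, 67.3 and 51.7 CPM in Zeb2 cKO hearts. The log2 fold change of Slc25a34 was 0.055 (SE 0.35), and -0.27 without WT replicate 2. Slc25a46 lay between 33.2 and 48.2 CPM, Slc25a45 between 2.84 and 5.33, Slc25a35 between 1.41 and 2.03, Slc25a53 between 1.87 and 2.604 and Slc25a47 between 0.480 and 1.15 CPM.

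Many of the lowest carrier values came from a single library. WT replicate 2 was the lowest of the 6 libraries for 22 of the 38 carriers (57.9%), against 34.6% of all genes tested, and the highest for 8 (21.1%), against 35.2%. It was lowest for each of the first 10 carriers by level per kilobase and for 12 of the other 28. The 8 carriers highest there were Slc25a1, Slc25a17, Slc25a24, Slc25a30, Slc25a32, Slc25a35, Slc25a36 and Slc25a45. Zeb2 cKO replicate 1 was the highest library for 12 carriers (31.6%), against 17.4% of genes. The median SD of log2 CPM over the 6 hearts was 0.226 for the carriers and 0.259 for all genes tested. The cardiomyocyte, fibroblast and macrophage markers moved in the same library as given above, and their part in these orders was not tested.

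**Figure D4:**
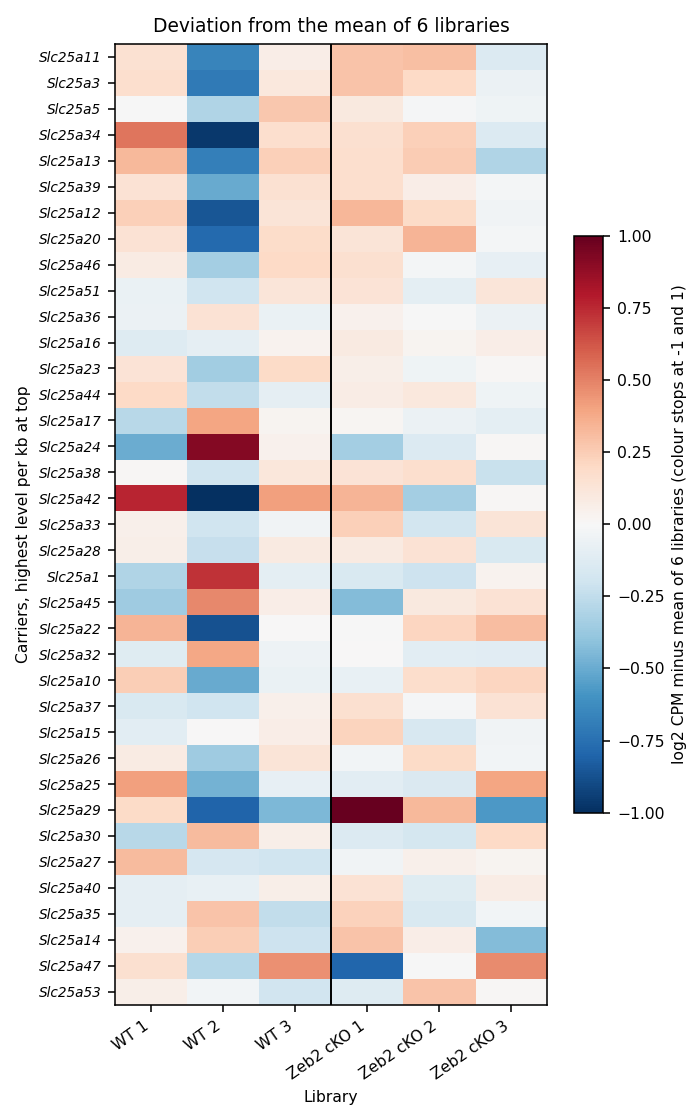
Deviation of the log2 CPM of each of 37 carriers from its mean over the 6 libraries, with carriers in order of level and a column for each library. The column of WT replicate 2 is lowest for 21 of the carriers drawn, the first 10 among them, and highest for 8.

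Within a library the mix of carriers shifted as well. Cofactor and nucleotide carriers made up 15.2% of the family's level per kilobase in WT replicate 2 and 10.9% to 13.1% in the other 5 hearts. Carboxylate and acylcarnitine carriers made up 27.6% there and 28.7% to 32.3% elsewhere. The share of the energy group was 30.8% to 33.1% in all 6 hearts. The shares of these 3 groups overlapped between the genotypes. Slc25a3 alone made up 19.4%, 17.0% and 19.1% in WT and 20.5%, 19.7% and 19.7% in Zeb2 cKO hearts, which did not overlap. This share was singled out after its values were seen and was not tested.

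Other genes of the same compartment gave similar values. Of 24 genes for protein import through the outer and inner membranes, 23 were tested. Of these, 18 had a log2 fold change above 0, against 48.6% of all genes, and 5 below. The median was 0.079, or 0.017 without WT replicate 2, which was the lowest library for 14 genes of the list. The list holds TOM, small TIM and TIM22 subunits, which carriers use, and subunits of the TIM23 translocase and its motor, which import proteins with a presequence. At an adjusted p under 0.05 there were 0. Pam16, a subunit of the TIM23 motor, was the 1 gene with an unadjusted p under 0.05. It was higher in Zeb2 cKO hearts, as were 1.04% of all genes at that p. It was at 0.292, 0.182 and 0.312 CPM in WT and 0.500, 0.415 and 0.409 CPM in Zeb2 cKO hearts (log2 fold change 0.75, SE 0.31, unadjusted p = 0.0470, adjusted p = 0.957 by edgeR). The groups did not overlap, as for 3.39% of all genes in this direction, on a sum of 96 counts over the 6 libraries. Without WT replicate 2 its log2 fold change was 0.55.

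The next list held 23 other genes of mitochondrial transport, such as the pyruvate carrier, the calcium uniporter and the sideroflexins. Of these, 13 had a log2 fold change above 0, against 48.6% of all genes, and 10 below. At an unadjusted p under 0.05 there were 0 (1.9% of all genes). Vdac1, Vdac2 and Vdac3, channels of the outer membrane, are in this list and were above 0. The median was 0.11, and 0.0034 without WT replicate 2. The smallest p was that of Sfxn3, a serine transporter, at 3.45, 10.1 and 4.32 CPM in WT and 3.02, 2.67 and 3.80 CPM in Zeb2 cKO hearts (log2 fold change -0.92, SE 0.41, and -0.29 without WT replicate 2). Among the relatives outside the Slc25 symbols, Ucp3, the uncoupling protein of muscle, was at 17.8, 3.71 and 11.1 CPM in WT and 11.1, 13.3 and 20.01 CPM in Zeb2 cKO hearts. Its log2 fold change was 0.45 (SE 0.52), and 0.036 without WT replicate 2. Ucp3 was lowest in WT replicate 2, and the groups overlapped. Mtch2, a carrier relative of the outer membrane, was at 41.9, 33.5 and 40.4 CPM in WT and 47.4, 48.1 and 39.3 CPM in Zeb2 cKO hearts. Mtch2 was lowest in WT replicate 2, and its log2 fold change was 0.22 (SE 0.14), and 0.13 without that library. Mtch1, its paralog, was at 42.7, 69.4 and 42.4 CPM in WT and 43.2, 44.5 and 42.3 CPM in Zeb2 cKO hearts, highest in WT replicate 2 (log2 fold change -0.25, SE 0.21, and 0.030 without that library). Ucp2 ranged over 11.7 to 27.5 CPM (log2 fold change -0.061, SE 0.34, and 0.041 without WT replicate 2). Ucp1, the uncoupling protein of brown fat, had 1 count in the 6 libraries.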

How the data were processed

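Ribosomal RNA-depleted, strand-marked libraries of 6 mouse hearts were sequenced. The authors deposited raw counts per Gencode M4 gene, aligned and counted with STAR on GRCm38 (version and strand setting are not given in the sources used here), and compared groups with DESeq. No column was left unmatched to a sample. Gene symbols, lengths and coordinates came from Gencode M21 (GRCm38). Genes were filtered with filterByExpr, scaled by TMM and tested with edgeR 4.0.16 (quasi-likelihood, Benjamini-Hochberg adjustment over 14746 genes, R 4.3.3), and DESeq2 1.42.0 was an alternative, with DESeq2 size factors, no filter, robust dispersions, mitochondrially encoded genes left out, a replicate block and each library left out. Counts past ±0.2 on the log2 scale were added after seeing the data. Near-identical sequence was searched with BLAST 2.17.0. In simulated counts of 14598 genes, edgeR called 25 of 96 genes changed by 1 and 90 of 99 changed by 2 on the log2 scale, and 5 of 14403 unchanged genes. Same-numbered hearts are different animals, and their deviations correlated at 0.088, -0.14 and -0.087. Pairs of libraries of a group differed beyond sampling noise (chi-square per degree of freedom 17.1 to 185). The members and lists were chosen with earlier results of these data known. Fold changes were followed through all alternatives for the first 10 carriers by level per kilobase and the 5 lower and 5 higher carriers with the smallest unadjusted p, 19 in all since 1 was in both sets. Slc25a22 and Slc25a42 lie outside that rule and were described after their values were seen. The fold changes given for Slc25a14, Slc25a23, Slc25a27 and Slc25a30 lie outside it as well. A carrier excluded by the rule is not reported here, and 1 of the 38 members is kept in the counts and fits and is not described or drawn.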

Additional observations from a re-analysis of the deposited data

How the results depend on the processing

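No carrier passed an adjusted p of 0.05 in either direction under any of the alternatives run, and at an unadjusted p under 0.05 there were 0 to 1 lower and 0 to 1 higher carriers when each library was left out (0 and 0 in all hearts). They were Slc25a24 without WT replicate 1, where 5.49% of all genes were lower, Slc25a42 without WT replicate 2 (1.08%) and Slc25a29 without Zeb2 cKO replicate 3 (1.1% higher). Carriers under -0.2 on the log2 scale numbered 3 to 6 against 2 when a library was left out (11.7% to 28.8% of all genes), and carriers over 0.2 numbered 1 to 14 against 7 (14.2% to 26.5%). The log2 fold changes of 12 of 19 carriers changed sign when 1 library was left out, each of them without WT replicate 2. Their ranges were -0.12 to 0.16 for Slc25a5, -0.27 to 0.39 for Slc25a34, -0.22 to 0.21 for Slc25a13, -0.070 to 0.22 for Slc25a39, -0.010 to 0.45 for Slc25a12, -0.0018 to 0.40 for Slc25a20, -0.12 to 0.13 for Slc25a46, -0.69 to 0.060 for Slc25a24, -0.48 to 0.093 for Slc25a1, -0.25 to 0.018 for Slc25a32, -0.26 to 0.076 for Slc25a17 and -0.33 to 0.089 for Slc25a45. The other 7 kept their sign, and no sign changed under another tool, scaling or filter. With the replicate block, 3 carriers lay under -0.2 (21.0% of genes) and 8 over 0.2 (18.0%), 0 had an unadjusted p under 0.05, and the median was 0.070. Over all counts, mitochondrially encoded ones included, the family's share was 0.101% in WT and 0.117% in Zeb2 cKO hearts. The cause of these differences was not tested. With 3 hearts a group, p-values measure the spread between these hearts, and a change near the size of the standard errors (up to 0.50) was not detectable.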
